A study of Mus musculus with 10 samples.

Results

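The genes described here are 50 genes of DNA replication and mitosis, taken from a fixed list and matched by symbol to the probe sets of an Affymetrix GeneChip mouse genome array. For 49 of the 50 a probe set annotated with that symbol alone was found, and where a gene had several, the one with the highest mean over the 10 arrays was used. Ccnb1 had no such probe set in the annotation used and was not analysed here. The 49 genes (out of 18193 genes with a single-symbol probe set) fell into 15 S phase genes, which license origins, copy DNA or make its nucleotides, and 34 mitosis genes, which drive entry into mitosis, build the spindle and separate the chromosomes.

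The arrays came from a subcutaneous islet transplantation experiment in mice. In the PSI-F group, pancreatic islets of Wistar rats were embedded in a plasma-based scaffold together with cultured skin fibroblasts of nu/nu mice, and in the PSI group the scaffold held islets alone. Both were placed over the abdominal musculature of immunodeficient male Swiss nu/nu mice that were 6 weeks old and had been made diabetic with streptozotocin, and grafts were taken 1, 3, 7 and 10 days after they were placed. The non-transplanted animals were the Diabetic group, which had received streptozotocin, and the Control group, which was healthy, and a subcutaneous biopsy of each was hybridized. Every condition was represented by 1 array, so each difference between 2 arrays below has no replicate and no test. The nu/nu mice lacked a functional thymus, and the grafts held rat islet cells whose transcripts are seen on a mouse array only where they bind mouse probes. Per the methods, 2 mice of each graft group were killed per day, a part of each graft gave RNA, and the RNA of best quality was chosen for the arrays, without saying if RNA of both mice was pooled.

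Cells that prepare to divide first load the Mcm helicase onto replication origins, a step that needs Cdc6, and then copy their DNA with the help of the sliding clamp Pcna and of enzymes that supply deoxynucleotides. Cyclin E starts this phase, and cyclins A and B with their kinase Cdk1 later bring the cell into mitosis. Genes of S phase are commonly controlled by E2F factors at the G1/S boundary, and genes of mitosis by the DREAM and MuvB complexes through CHR and CCAAT elements, so that the groups reach their peak at different points of the cycle. In skin, dividing cells are found in the basal epidermis, in the matrix of growing hair follicles, and in wounds among fibroblasts, endothelium and immune cells.

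Proximal promoters are shown because they show these elements in the genes that differed most between arrays. In the RefSeq promoter table of build GRCm38.p6 (300 bases, from 250 before to 50 after the start site), 12 of the 15 S phase genes and 30 of the 35 listed mitosis genes had an entry, Ccnb1 included. Both strands were searched for E2F words (TTCCCGC or TTCGCGC or TTGCCGC or TTGGCGC), CHR words (TTTGAA or TTCGAA) and the CCAAT box (CCAAT). An E2F word was found in 7 S phase promoters (58.3%) and in 4 mitosis promoters (13.3%), against 10.9% of the 27025 genes of the table. A CHR word was found in 2 S phase promoters (16.7%) and in 23 mitosis promoters (76.7%), against 21.7% of all genes. CCAAT was found in 8 S phase promoters (66.7%) and 22 mitosis promoters (73.3%), against 41.1% of all genes, and 20 mitosis promoters (66.7%) held both CHR and CCAAT, against 9.65% of all genes. These shares are a description of the letters in the window and were not tested. The 250 bases before the start site are given for the 2 S phase genes with a promoter entry that were lowest in the Diabetic relative to the Control biopsy, Cdc6 and Rrm2, and for the 2 such mitosis genes that were lowest in the PSI-F relative to the PSI graft of day 1, Kif11 and Bub1. Capitals mark the words found, on either strand. They are an E2F word in Cdc6 (chr11:98907901-98908150, plus strand), an E2F word and a CCAAT box in Rrm2 (chr12:24708004-24708253, plus strand), a CCAAT box followed by a CHR word in Kif11 (chr19:37376132-37376381, plus strand), and 2 CCAAT boxes in Bub1 (chr2:127831860-127832109, minus strand), whose CHR word, TTCGAA, began 15 bases after the start site and lies outside the printed stretch. No marked words overlapped.
Cdc6: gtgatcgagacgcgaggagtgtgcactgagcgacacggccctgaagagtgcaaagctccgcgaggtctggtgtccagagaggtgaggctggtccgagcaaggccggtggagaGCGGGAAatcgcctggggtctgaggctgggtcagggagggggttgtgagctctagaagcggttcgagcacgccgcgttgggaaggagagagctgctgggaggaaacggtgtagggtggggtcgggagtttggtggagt
Rrm2: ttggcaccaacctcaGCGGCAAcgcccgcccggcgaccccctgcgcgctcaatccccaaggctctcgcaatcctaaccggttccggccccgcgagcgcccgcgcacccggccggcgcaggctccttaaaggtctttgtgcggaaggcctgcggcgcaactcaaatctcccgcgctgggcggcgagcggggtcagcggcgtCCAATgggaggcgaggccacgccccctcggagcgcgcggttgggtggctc
Kif11: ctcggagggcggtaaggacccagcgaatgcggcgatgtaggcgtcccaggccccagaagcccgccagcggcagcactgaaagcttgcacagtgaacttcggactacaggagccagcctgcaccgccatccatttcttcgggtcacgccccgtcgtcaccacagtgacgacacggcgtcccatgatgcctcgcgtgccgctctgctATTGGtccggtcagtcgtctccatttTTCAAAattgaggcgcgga
Bub1: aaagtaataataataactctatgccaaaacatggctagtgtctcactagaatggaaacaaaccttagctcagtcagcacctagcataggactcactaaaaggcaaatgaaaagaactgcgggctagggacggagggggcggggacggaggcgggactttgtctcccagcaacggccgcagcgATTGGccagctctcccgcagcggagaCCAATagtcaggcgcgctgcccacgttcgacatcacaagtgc

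Values are log2 levels, so a difference of 1 between 2 arrays is 2-fold, the size used here to count genes as apart. The median level of all probe sets was between 2.82 and 2.94 on the 10 arrays. Tyms and Ndc80 never reached a level 1 above the median of their array and are close to the lower end of the scale, whereas the other 47 genes did on at least 1 array. Some of these also had values below the array medians. They were Kif11 at 2.62 and Kif20a at 2.37 in the PSI-F graft of day 1, and Cdc6 at 2.43 in the Diabetic biopsy. Differences that use these values thus rest on levels close to the lower end of the scale. Over the 10 arrays, the range of a gene was between 0.67 for Foxm1, a transcription factor of mitotic genes, and 2.22 for Kif11, the motor that pushes the spindle poles apart. The lowest array was the PSI-F graft of day 1 for 29 of the 49 genes, 27 of them mitosis genes, against 9.73% of all genes, and the Diabetic biopsy for 13 genes, 11 of them S phase genes, against 19.8% of all genes. The highest array was the Control biopsy for 29 of the 49 genes, against 17.5% of all genes.

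**Figure D1:**
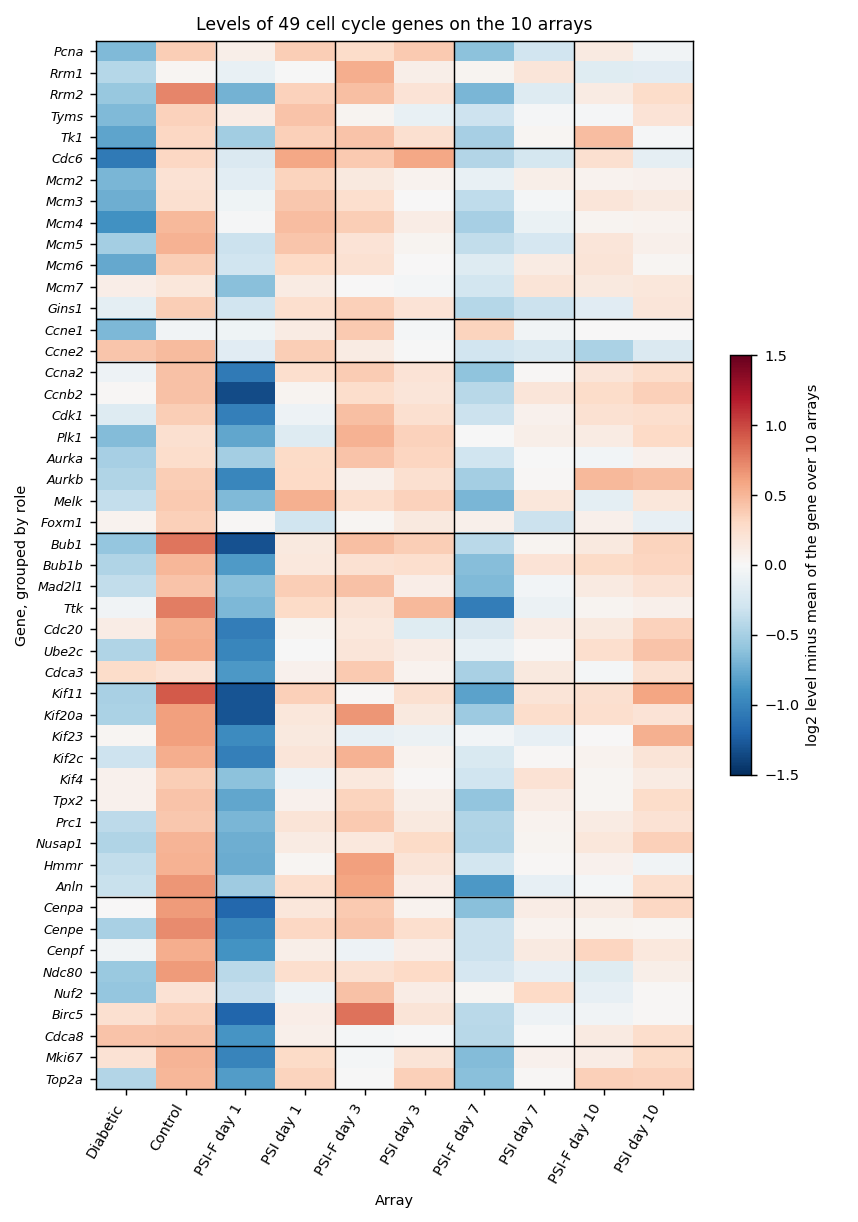
Log2 level of each of the 49 genes (vertical axis, grouped by role) on each of the 10 arrays (horizontal axis), drawn as the difference from the gene's own mean over the 10 arrays. In the PSI-F graft of day 1 the mitosis genes are low (27 of 34 have their lowest value there), and the S phase genes are lowest in the Diabetic biopsy (11 of 15).

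On day 1 after transplantation, the PSI-F graft had lower levels than the PSI graft for nearly the whole list. Of the 49 genes 48 were below 0 in the difference PSI-F minus PSI, against 53.4% of all genes, and 17 were at least 2-fold lower, against 0.819% of all genes. None was at least 2-fold higher, against 0.313% of all genes. The median difference was -0.88 over the 49 genes, -0.99 over the mitosis genes and -0.54 over the S phase genes, whereas the median over all genes was near 0. The 17 genes were 16 of 34 mitosis genes and 1 of 15 S phase genes, Rrm2, the small subunit of the ribonucleotide reductase. At a 4-fold threshold 0 of the 49 were lower, against 0.121% of all genes. Foxm1 was the gene above 0, with a difference of 0.32 on its chosen probe set. Its other probe sets went the opposite way. Their day 1 levels were 3.372, 3.365 and 0.564 for the PSI-F graft, against 3.612, 3.617 and 0.625 for the PSI graft. The direction for Foxm1 thus depended on the probe set. Taking in place of all genes those with a mean level of at least 4, the share at least 2-fold lower was 0.971%. In tissue samples such as these, fewer dividing cells and less of these transcripts per cell cannot be told apart.

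**Figure D2:**
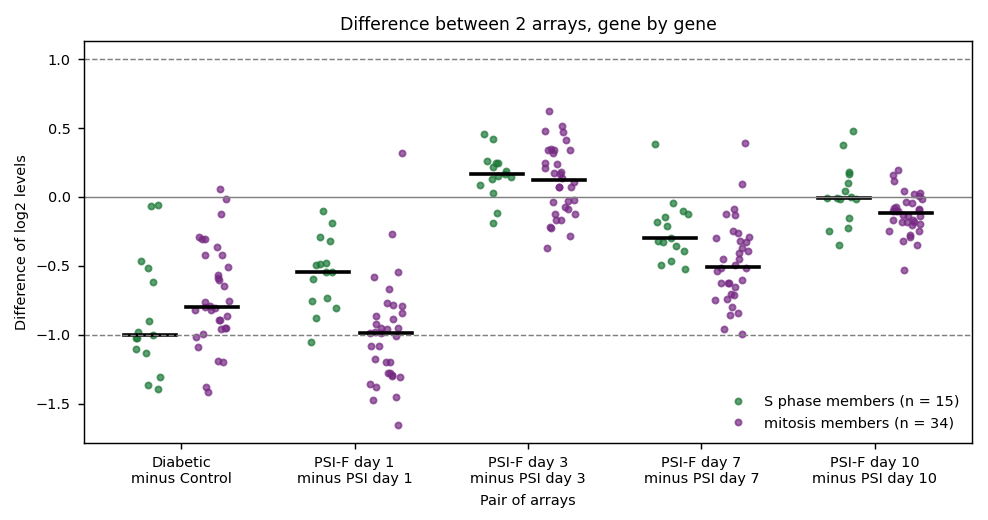
Difference of log2 levels between 2 arrays (vertical axis) for the Diabetic minus the Control biopsy and for PSI-F minus PSI on each day (horizontal axis), with 1 point per gene for the 15 S phase genes and the 34 mitosis genes. On day 1 the mitosis genes have a median of -0.99 and the S phase genes of -0.54, on day 3 most genes are above 0, on day 7 46 of 49 are below 0, and on day 10 both medians are near 0.

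The chromosome proteins Mki67, the Ki-67 antigen that coats mitotic chromosomes and is the usual marker of proliferating cells, and Top2a, which untangles replicated DNA, showed this pattern. Mki67 was 6.44, 7.41, 6.78 and 7.55 in PSI-F grafts of days 1, 3, 7 and 10, against 7.72, 7.63, 7.5 and 7.72 in PSI grafts, and 7.66 in the Diabetic and 7.94 in the Control biopsy. The PSI-F graft was below the PSI graft on each day, with a difference of -1.28 on day 1 and -0.17 on day 10, and all 4 PSI-F grafts were below both biopsies. Top2a was 5.72, 6.54, 5.92 and 6.91 in PSI-F grafts, against 6.89, 6.91, 6.57 and 6.89 in PSI grafts, and 6.11 in the Diabetic and 7.05 in the Control biopsy. For Top2a the day 10 grafts did not differ by more than 0.02, and the difference of Diabetic minus Control was -0.95.

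The kinesins and spindle proteins included Kif11, the gene with the widest range of the list. Kif11 was 2.62, 3.94, 3.12 and 4.16 in PSI-F grafts, against 4.28, 4.16, 4.12 and 4.51 in PSI grafts, and 3.43 in the Diabetic and 4.84 in the Control biopsy. It was lower in PSI-F on all 4 days, with differences of -1.65, -0.22, -1.0 and -0.35. Kif20a, a kinesin of the central spindle and cytokinesis, was 2.37, 4.33, 3.13 and 3.92 in PSI-F grafts, against 3.85, 3.82, 3.93 and 3.88 in PSI grafts, and 3.19 in the Diabetic and 4.28 in the Control biopsy. Its day 3 value in PSI-F was the highest of the 10 arrays, and its day 1 value the lowest. Kif2c, which removes wrongly attached microtubules from kinetochores, was 3.65, 5.19, 4.45 and 4.72 in PSI-F grafts, against 4.85, 4.72, 4.69 and 4.86 in PSI grafts, and 4.36 in the Diabetic and 5.22 in the Control biopsy. Of the 10 genes of this group, all were lower in PSI-F on day 1 and 4 at least 2-fold, with Kif23 as the fourth.

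The spindle checkpoint delays chromosome separation until all kinetochores are attached. The 7 genes of the group of spindle checkpoint and anaphase had differences of PSI-F minus PSI between -1.45 and -0.92 on day 1. Bub1, a checkpoint kinase, was 3.06, 4.81, 3.95 and 4.51 in PSI-F grafts, against 4.51, 4.73, 4.40 and 4.69 in PSI grafts, and 3.78 in the Diabetic and 5.16 in the Control biopsy. Ttk, the kinase Mps1 that starts the checkpoint, was 3.5, 4.36, 3.13 and 4.21 in PSI-F grafts, against 4.45, 4.65, 4.08 and 4.24 in PSI grafts, and 4.11 in the Diabetic and 4.94 in the Control biopsy. Unlike Bub1, Ttk had its lowest value on day 7 in PSI-F, with a difference from PSI of -0.95 on both days 1 and 7. Cdc20, which activates the anaphase-promoting complex once the checkpoint is satisfied, was 5.84, 7.04, 6.66 and 7.02 in PSI-F grafts, against 6.92, 6.69, 6.98 and 7.23 in PSI grafts, and 6.99 in the Diabetic and 7.41 in the Control biopsy. In this group Bub1, Bub1b and Cdc20 reached 2-fold on day 1.

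Of the centromere, kinetochore and chromosomal passenger genes, the PSI-F graft of day 1 was 2-fold or more below the PSI graft for Cenpa, Cenpe and Birc5. Birc5 (survivin), a subunit of the chromosomal passenger complex that also inhibits apoptosis, was 4.22, 6.23, 5.01 and 5.36 in PSI-F grafts, against 5.51, 5.61, 5.34 and 5.44 in PSI grafts, and 5.65 in the Diabetic and 5.77 in the Control biopsy. It was thus lowest on day 1 and highest on day 3 within PSI-F, whereas its PSI values lay between 5.34 and 5.61. Cenpa, the histone H3 variant of centromeres, was 4.16, 5.74, 4.71 and 5.46 in PSI-F grafts, against 5.52, 5.40, 5.45 and 5.66 in PSI grafts, and 5.34 in the Diabetic and 5.99 in the Control biopsy. Cenpe, a kinetochore motor, was 3.43, 4.82, 4.08 and 4.44 in PSI-F grafts, against 4.72, 4.66, 4.46 and 4.43 in PSI grafts, and 3.92 in the Diabetic and 5.11 in the Control biopsy. For all 3 genes the PSI-F graft of day 1 was the lowest of the 10 arrays.

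Among the cyclins, kinases and regulators of mitotic entry, Ccna2, Ccnb2, Aurkb and Melk differed by 2-fold or more on day 1, PSI-F being the lower graft. Ccnb2, a B-type cyclin, was 4.14, 5.74, 5.06 and 5.75 in PSI-F grafts, against 5.52, 5.66, 5.66 and 5.83 in PSI grafts, and 5.5 in the Diabetic and 5.92 in the Control biopsy. Ccna2, the cyclin that acts in S phase and at mitotic entry, was 4.78, 6.21, 5.23 and 6.01 in PSI-F grafts, against 6.09, 6.04, 5.86 and 6.10 in PSI grafts, and 5.76 in the Diabetic and 6.27 in the Control biopsy. Both were lowest on day 1 in PSI-F and next lowest on day 7 in PSI-F. Cdk1, the mitotic kinase that these cyclins activate, was 4.83, 6.30, 5.53 and 6.08 in PSI-F grafts, against 5.78, 6.09, 5.92 and 6.10 in PSI grafts, and 5.65 in the Diabetic and 6.22 in the Control biopsy. For Cdk1 the difference of PSI-F minus PSI was -0.95 on day 1 and 0.21 on day 3.

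The S phase genes were ordered differently, with the Diabetic biopsy the lowest array for 11 of 15. The exceptions were Rrm2, Mcm7, Gins1 and Ccne2, and for Mcm7, a helicase subunit, and Gins1, a subunit of the GINS complex of the replication fork, the Diabetic biopsy was above 4 of the grafts. Cdc6, which loads the replicative helicase, was 3.27, 3.89, 3.05 and 3.73 in PSI-F grafts, against 4.07, 4.07, 3.23 and 3.35 in PSI grafts, and 2.43 in the Diabetic and 3.8 in the Control biopsy. Mcm4, a subunit of that helicase, was 6.16, 6.56, 5.69 and 6.23 in PSI-F grafts, against 6.65, 6.30, 6.08 and 6.24 in PSI grafts, and 5.28 in the Diabetic and 6.67 in the Control biopsy. For both genes every graft was above the Diabetic biopsy. Mcm3, another subunit, was 5.75, 6.06, 5.43 and 5.99 in PSI-F grafts, against 6.23, 5.82, 5.79 and 5.95 in PSI grafts, and 5.08 in the Diabetic and 6.06 in the Control biopsy. The 8 genes of origin licensing and the helicase had differences of PSI-F minus PSI between -0.80 and -0.48 on day 1, and none reached 2-fold.

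Of the 5 genes of DNA synthesis and nucleotide supply, Rrm2 was 5.90, 7.06, 5.92 and 6.73 in PSI-F grafts, against 6.96, 6.81, 6.42 and 6.88 in PSI grafts, and 6.04 in the Diabetic and 7.34 in the Control biopsy. Tk1, the thymidine kinase of dividing cells, was 4.56, 5.52, 4.59 and 5.55 in PSI-F grafts, against 5.44, 5.33, 5.11 and 5.07 in PSI grafts, and 4.29 in the Diabetic and 5.40 in the Control biopsy. Rrm2 had its lowest values on days 1 and 7 in PSI-F, and Tk1 in the Diabetic biopsy. Tyms, the thymidylate synthase, was at the low end of the scale, with 2.41, 2.34, 1.99 and 2.28 in PSI-F grafts, against 2.72, 2.18, 2.28 and 2.51 in PSI grafts, and 1.64 in the Diabetic and 2.64 in the Control biopsy. Pcna, chosen for its role after its values were seen, was 8.75, 8.94, 8.05 and 8.80 in PSI-F grafts, against 9.04, 9.05, 8.38 and 8.62 in PSI grafts, and 8.01 in the Diabetic and 9.03 in the Control biopsy. Its difference of -0.29 on day 1 was among the smaller of the list, and its PSI-F level of day 7 was close to that of the Diabetic biopsy.

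The E cyclins, which start S phase with Cdk2, were ordered in other ways. Ccne1 was 4.19, 4.65, 4.59 and 4.26 in PSI-F grafts, against 4.38, 4.23, 4.20 and 4.26 in PSI grafts, and 3.58 in the Diabetic and 4.20 in the Control biopsy, so that the PSI-F grafts of days 3 and 7 were the highest arrays. On its other probe set PSI-F of day 7 was also the highest, at 4.16. There PSI-F of day 3, at 3.83, was below PSI of day 1, at 3.97, and PSI of day 10, at 3.95. Ccne2 was 3.83, 4.13, 3.72 and 3.53 in PSI-F grafts, against 4.38, 4.0, 3.76 and 3.78 in PSI grafts, and 4.42 in the Diabetic and 4.48 in the Control biopsy. All grafts were thus below both biopsies for Ccne2.

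**Figure D3:**
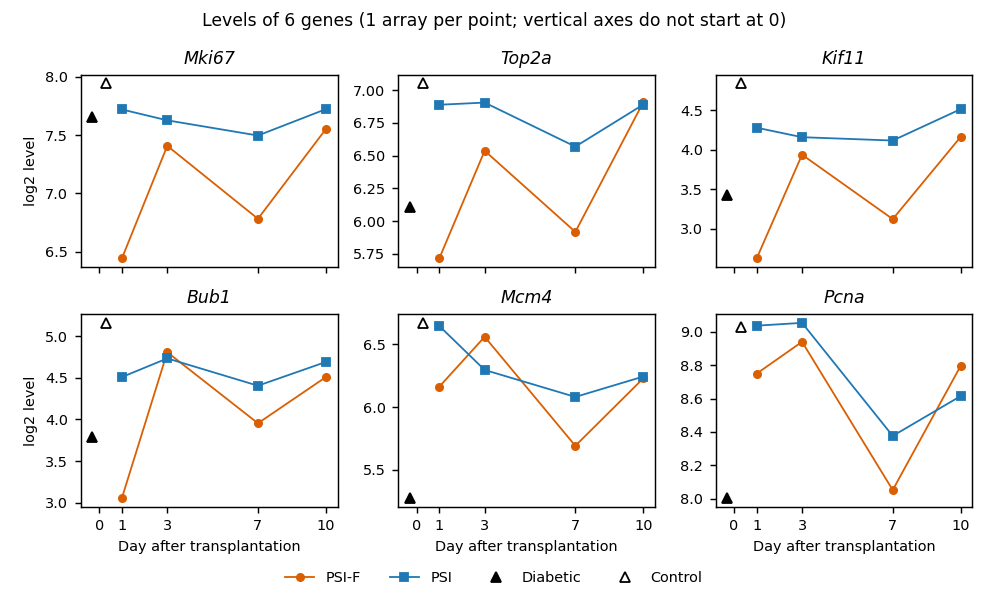
Log2 level (vertical axis, not starting at 0) of Mki67, Top2a, Kif11, Bub1, Mcm4 and Pcna against day after transplantation (horizontal axis), with 1 array per point, lines for PSI-F and PSI grafts and triangles at day 0 for the Diabetic and Control biopsies. The PSI-F line is below the PSI line on days 1 and 7 for all 6 genes, and Mcm4 and Pcna are lowest in the Diabetic biopsy.

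The difference between PSI-F and PSI did not keep its direction over the days. On day 3 none of the 49 genes was at least 2-fold higher (0.989% of all genes) or lower (1.87%), and 34 of 49 were above 0, against 49.4% of all genes, with medians of 0.17 over the S phase genes and 0.12 over the mitosis genes. Birc5 was the highest, at 0.63, and Top2a the lowest, at -0.37. On day 7 the genes were again lower in PSI-F, 46 of 49 being below 0, against 57.2% of all genes, with medians of -0.50 over the mitosis genes and -0.30 over the S phase genes. None reached 2-fold lower (0.824% of all genes) or higher (0.956%), Kif11 being the nearest at -1.0 after rounding. On day 10 35 of 49 were below 0, against 48.3% of all genes, the medians were -0.12 over the mitosis genes and -0.01 over the S phase genes, and none was 2-fold higher (0.385%) or lower (0.346%). In all, 46 of the 49 genes were lower in PSI-F on both days 1 and 7, against 38.4% of all genes, and 8 were lower on all 4 days, against 8.19%. These 8 were the mitosis genes Melk, Bub1b, Ttk, Kif11, Nusap1, Ndc80, Cdca8 and Mki67.

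Within PSI-F, the step between days 1 and 3 was the largest. On day 3 relative to day 1, 22 genes were at least 2-fold higher (21 mitosis genes and Rrm2), against 2.58% of all genes, with a median difference of 0.93 over the list and with Birc5 at 2.01. On day 7 relative to day 3, 7 genes were at least 2-fold lower (Rrm2, Mad2l1, Ttk, Kif20a, Anln, Cenpa and Birc5), against 3.33% of all genes, with a median of -0.72. On day 10 relative to day 7, Ttk and Kif11 were at least 2-fold higher, against 4.09% of all genes, with a median of 0.55. Within PSI none of the 49 genes was 2-fold apart between any day and the next one, the medians being -0.04, -0.14 and 0.17, and the shares of all genes were 1.57% higher and 1.01% lower for day 3 relative to day 1, 1.19% and 1.9% for day 7 relative to day 3, and 2.14% and 1.47% for day 10 relative to day 7. The comparisons of PSI-F day 1 with PSI day 1 and with PSI-F day 3 share an array, so they are not separate support for its low levels.

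In the biopsies the list was lower in the Diabetic than in the Control animal. Of the 49 genes 48 were below 0, against 50% of all genes, and 13 were at least 2-fold lower, against 6.89% of all genes, while none was at least 2-fold higher, against 4.12%. The median difference was -0.82, with -1.0 over the S phase genes and -0.79 over the mitosis genes. The 13 were 7 of 15 S phase genes (Rrm2, Tk1, Pcna, Cdc6, Mcm4, Mcm5 and Mcm6) and 6 of 34 mitosis genes (Kif11, Bub1, Ndc80, Cenpe, Kif20a and Ube2c). Kif11 and Mcm4 had the largest differences, -1.41 and -1.40, and 0 of the 49 genes were 4-fold lower, against 0.824% of all genes. Mki67, by contrast, differed by -0.29, and Birc5, Cdca8, Mcm7, Ccne2 and Cdca3 by no more than 0.12 in either direction. The Diabetic array stood apart in other measures, whose part in this result was not tested. Its actin 3 prime probe set was 2.98 above the middle one, against 1.49 in the Control biopsy and 1.20 to 1.69 in the grafts. Its actin 3 prime probe set was 0.33 above the 5 prime one, the lowest of the 10 arrays (0.45 to 0.76 on the others), and for Gapdh that difference was 0.25 in Diabetic, against 0.03 in Control and up to 0.29 in the grafts. Its median epidermis marker level was 9.65, against 11.28 in Control, with 4 of 6 epidermis markers at least 2-fold lower.

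The comparison of grafts with biopsies differed with the biopsy used. Relative to the Control biopsy, 31 genes were at least 2-fold lower in the PSI-F graft of day 1 (30 mitosis genes and Rrm2), against 5.63% of all genes, and 15 in the PSI-F graft of day 7 (14 mitosis genes and Rrm2), against 7.8%. In the other grafts none of the 49 was at least 2-fold lower than Control, the share of all genes being 4.69% in PSI-F of day 3 and 1.01% in PSI-F of day 10, and 3.83%, 2.85%, 5.45% and 1.17% in PSI of days 1, 3, 7 and 10. Relative to the Diabetic biopsy, the PSI-F graft of day 1 had 7 genes at least 2-fold lower, against 5.47% of all genes, all of them mitosis genes (Ccnb2, Cdc20, Cdca3, Cenpa, Birc5, Cdca8 and Mki67), whereas its S phase genes had a median of 0.46. The PSI graft of day 1 had 8 genes at least 2-fold higher than Diabetic, against 7.77% of all genes, and these were all S phase genes (Pcna, Tyms, Tk1, Cdc6, Mcm2, Mcm3, Mcm4 and Mcm6). On day 3, 9 genes in PSI-F (9.9% of all genes) and 4 in PSI (8.17%) were at least 2-fold higher than Diabetic. On later days there were 1 such gene in PSI-F of day 7, Ccne1 (7.19% of all genes), 2 in PSI-F of day 10, Tk1 and Cdc6 (6.5%), and 1 in PSI of day 10, Kif11 (6.48%). No gene was 2-fold higher than Diabetic in the PSI graft of day 7, against 8.51% of all genes. All these pairs share the same 2 biopsy arrays.

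S phase and mitosis genes were then set against each other on each array, as the median over each set of the level relative to the gene's own mean over the 10 arrays. In the PSI-F graft of day 1 the S phase median was -0.17 and the mitosis median -0.87, a gap of 0.70, the widest of the 10 arrays. With a gene's probe sets averaged this gap was 0.44. The Diabetic biopsy had the opposite order, with -0.66 over the S phase genes and -0.35 over the mitosis genes. In the PSI-F graft of day 7 both sets were low to a like degree, at -0.37 and -0.42. In the PSI-F graft of day 3 they stood at 0.27 and 0.30, and in that of day 10 at 0.12 and 0.12. In PSI grafts of days 1, 3, 7 and 10 the S phase medians were 0.35, 0.05, -0.05 and 0.06 and the mitosis medians 0.15, 0.19, 0.05 and 0.25. The Control biopsy had 0.34 over the S phase genes and 0.50 over the mitosis genes. No test was made on these medians.

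**Figure D4:**
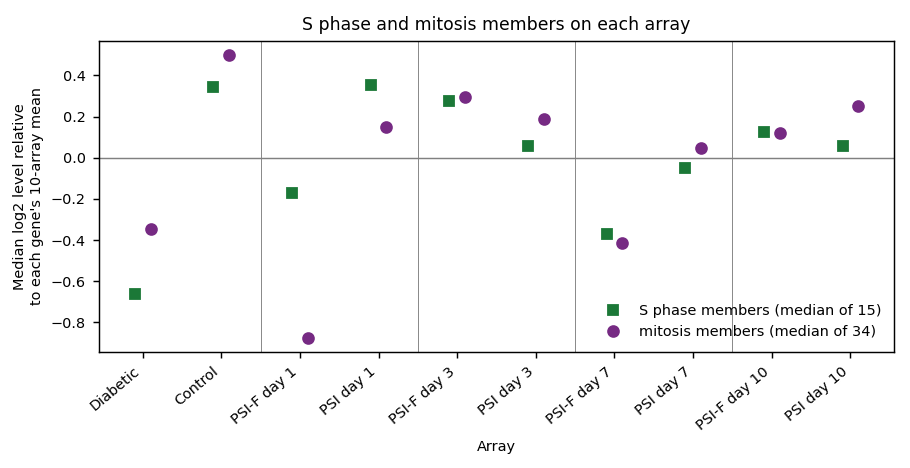
Median log2 level relative to each gene's mean over the 10 arrays (vertical axis) for the 15 S phase genes (squares) and the 34 mitosis genes (circles) on each array (horizontal axis). The medians are 0.70 apart in the PSI-F graft of day 1, where the mitosis genes are lower, and 0.31 apart the other way in the Diabetic biopsy.

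The other probe sets of the same genes gave a further reading. There were 62, of which 20 had a mean level of at least 4. On day 1 all 20 of these had the lower value in PSI-F, 7 of them at least 2-fold, with a median of -0.69, and 47 of all 62 were lower. The 7 were 4 of the 12 of S phase genes, with a median of -0.63, and 3 of the 8 of mitosis genes, with one of -0.76. Over all 62, dim ones included, the medians were -0.50 for S phase genes and -0.20 for mitosis genes. The larger share of mitosis genes at 2-fold among the chosen probe sets was thus not seen in the others. Between the biopsies 18 of the 20 were lower in Diabetic, with a median of -0.90. On day 7 18 of the 20 were lower in PSI-F, on day 10 12, and on day 3 4. When the probe sets of a gene were averaged, dim ones included, the count at 2-fold on day 1 was 7 of the 49 genes in place of 17, with a median of -0.62. The share of 0.819% of all genes applies to the chosen probe sets. No share over all genes is given here for averaged or other probe sets.

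Levels by day were tested with limma, with the 2 arrays of a day as its replicates and Benjamini-Hochberg adjustment over 45037 probe sets. None of the 49 genes passed an adjusted p of 0.05 in any comparison of a day's grafts with the biopsies. The share of all genes called was 3.87% higher and 1.69% lower on day 1, 4.44% and 0.929% on day 3, 5.23% and 3.89% on day 7, and 1.05% and 0.033% on day 10. The median difference of the list was -0.35 on day 1, 0.20 on day 3, -0.26 on day 7 and 0.11 on day 10. At an unadjusted p under 0.05 there were 3, 1, 2 and 1 of the 49 genes on these days. Of the 45037 probe sets there were 7792, 7286, 9634 and 5039. The smallest adjusted p in limma was that of Ccne2 on day 7, 0.067, with a difference of -0.71 (SE 0.19), lower in both grafts than in both biopsies. Later grafts (days 7 and 10) against earlier ones (days 1 and 3) gave no call among the 49 genes either, against 0.456% higher and 0.962% lower over all genes. At an unadjusted p under 0.05 there was 1 gene, Ccne2, beside 6424 of the 45037 probe sets. In these fits the difference between PSI-F and PSI and that between Diabetic and Control count as spread. With Diabetic alone as baseline, where the single biopsy is assumed to vary like the other groups, limma called 5 of the 49 genes higher on day 1 (Cdc6, Mcm3, Mcm4, Pcna and Tyms), against 10.1% of all genes. It called 9 higher on day 3 (Ccne1, Cdc6, Mcm2, Mcm3, Mcm4, Nuf2, Pcna, Plk1 and Rrm1), against 11.4%, and 2 on day 10 (Mcm3 and Mcm4), against 8.19%.

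For PSI-F minus PSI over the 4 days, with day as a block, limma called no member, and 0% of all genes in either direction. At an unadjusted p under 0.05 there were 9 of the 49 genes, all lower in PSI-F and all mitosis genes (Aurkb, Bub1b, Cdca8, Kif11, Melk, Mki67, Nusap1, Top2a and Ttk), beside 2749 of the 45037 probe sets. Kif11 had a difference of -0.81 (SE 0.22) and was lower on 4 of 4 days, and Mki67 one of -0.59 (SE 0.19), also on 4 of 4 days. The adjusted p of both in limma was 0.751. The median difference of the list was -0.30.

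Other genes of the cell cycle were read from lists of 49 further genes. Of the 7 G1 cyclins and kinases, 3 were at least 2-fold lower in Diabetic than in Control (Ccnd1, Ccnd2 and Cdk2), with a median of -0.89, and their median for PSI-F minus PSI on day 1 was -0.35. Ccnd1, the cyclin D that links growth signals to the cell cycle, was 6.53, 6.87, 6.63 and 7.66 in PSI-F grafts, against 7.47, 7.57, 7.47 and 7.55 in PSI grafts, and 6.28 in the Diabetic and 7.46 in the Control biopsy. It was lower in PSI-F on days 1, 3 and 7 and not on day 10. The 18 other replication and checkpoint genes had a median of -0.56 for PSI-F minus PSI on day 1, none being 2-fold lower, and of -0.34 for Diabetic minus Control, with Pola1, Prim1 and Cdc25b at least 2-fold lower. The 11 genes of the E2F and Rb family had a median of -0.36 on day 1, and only E2f7, a repressor of E2F targets, was 2-fold lower. Its level was 2.37 in PSI-F, against 3.76 in PSI. For Diabetic minus Control this family had a median of -0.09, with E2f6 and Rbl2 at least 2-fold higher and Rbl1 at least 2-fold lower. None of these differences between 2 arrays was tested.

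The Cdk inhibitors (7 genes) and p53 targets (6 genes) had medians of 0.06 and -0.01 for PSI-F minus PSI on day 1, and of 0.21 and 0.54 for Diabetic minus Control, where 2 p53 targets were at least 2-fold higher and 1 lower. Cdkn1a, the inhibitor p21, was 8.70, 8.26, 8.0 and 8.59 in PSI-F grafts, against 8.50, 8.17, 7.35 and 8.60 in PSI grafts, and 9.18 in the Diabetic and 8.94 in the Control biopsy. It fell on day 7 relative to the biopsies (difference -1.39, limma adjusted p 0.00833). E2f4, a repressor E2F of the DREAM complex, rose on day 1 (difference 1.08, limma adjusted p 0.00986) and was lower on days 7 and 10 than on days 1 and 3 (difference -0.77, limma adjusted p 0.0250). The call of E2f4 on day 1 was lost without the PSI-F graft of that day (limma adjusted p 0.101), and that of days 7 and 10 without any single graft other than PSI of day 3 (limma adjusted p 0.0766 to 0.124). These were the calls among the 49 further genes in the 6 limma comparisons. Sesn1, a p53 target of the stress response, was 9.24 in the Diabetic biopsy, against 7.26 in Control and 6.96 to 7.25 in the grafts.

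Markers of cells that divide in this tissue, or that could carry the genes, were set beside the list, and their part in the differences was not tested. Of 10 hair matrix and hair shaft markers 9 were matched, and their median level was 3.78, 2.71, 8.06 and 9.57 in PSI-F grafts of days 1, 3, 7 and 10, against 4.90, 8.83, 5.04 and 9.65 in PSI grafts, and 9.37 in the Diabetic and 9.51 in the Control biopsy. On day 1, 6 of 9 hair markers differed by 2-fold or more, with PSI-F the lower graft as for the mitosis genes. On day 3 all 9 were lower, with a median difference of -6.21, while the mitosis genes had a median of 0.12, and on day 7 the hair markers were higher in PSI-F, with a median of 1.32, while the mitosis genes had one of -0.50. No marker of fibroblasts (6 genes, median -0.31), macrophages (6 genes, 0.31) or epidermis (6 genes, -0.21) was 2-fold apart on day 1. By contrast PSI-F exceeded PSI by 2-fold or more for 2 of 5 T and NK cell markers (median 0.61), 1 of 3 matched erythroid markers was lower (median -0.84) and 1 of 5 matched islet markers was lower although their median was 0.24. Macrophage markers had a median level of 7.22 to 8.61 in the grafts, against 6.0 in Diabetic and 5.64 in Control, and were highest on day 3. Fibroblast markers had one of 9.79 to 11.42 in the grafts, against 9.76 in Diabetic and 9.61 in Control, and were highest on day 7. Skeletal muscle markers had a median of 11.26 to 12.31 on all 10 arrays. Ins2, an insulin gene and the check of islet content, was 7.70 to 10.6 in the grafts, against 3.13 in Diabetic and 2.27 in Control. The median level of the mitosis genes was not above Control in any graft, being 4.05 to 5.14 in the grafts and 5.28 in Control.

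**Figure D5:**
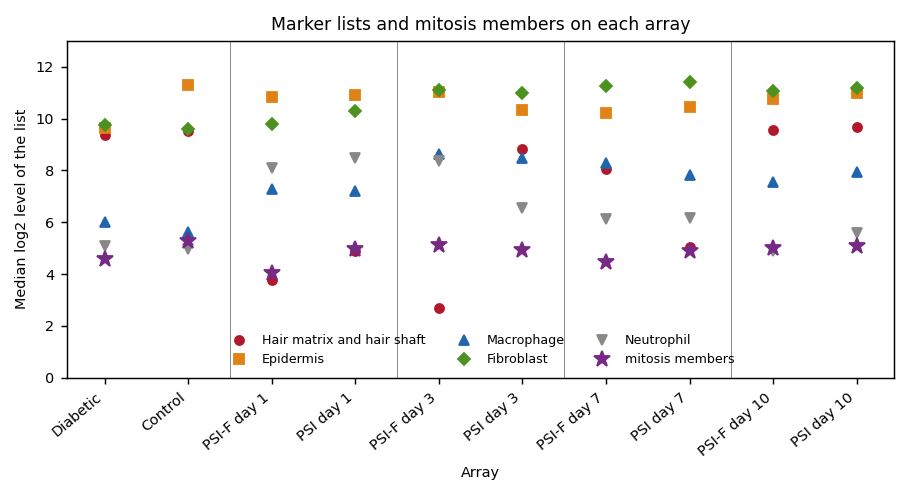
Median log2 level (vertical axis) of marker lists and of the 34 mitosis genes (stars) on each of the 10 arrays (horizontal axis). Hair markers range between 2.71 and 9.65, whereas the mitosis genes stay between 4.05 and 5.28, with the PSI-F graft of day 1 the lowest.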

How the data were processed

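Total RNA of 10 samples was hybridized to Affymetrix GeneChip mouse genome arrays. The deposited values are log2 levels made by the authors with RMA (R 2.15.0, affy 1.36.0, per the submitters' processing notes), so background, quantile normalization and probe summary were theirs and no depth applies, the number of arrays being what limits precision. Of 45101 probe sets, 64 controls were left out. Of the remaining 45037, 34945 had 1 gene symbol in the platform annotation, 932 several and 9160 none. A probe set was chosen per gene by its highest mean over the 10 arrays. Members and lists were chosen with earlier results of these data known. Differences of 2 arrays were counted at 2-fold, with no test. This is lower than the study's own threshold of 4-fold, which was used as an alternative, and the study named no test for its arrays. For days, limma 3.58.1 (R 4.3.3) was fitted to the 45037 probe sets with a day factor over 10 arrays, or, for PSI-F minus PSI, with day as a block over the 8 grafts, and p-values were adjusted by Benjamini-Hochberg over all of them, tested two-sided. The arrays of a day are not replicates of 1 condition. The p-values by day set a difference of day means against the spread between arrays of the same day, pooled over the days. Those of PSI-F minus PSI set that difference against its change from day to day. Values on all arrays were given for Mki67, Top2a and, in each role group, the 3 genes (2 in the smallest groups) with the largest range. The estimates of the fits were checked on simulated data with independent arrays. That check does not bear on the use of the arrays of a day as replicates. Alternatives were cyclic loess, an intensity trend, a filter on dim probe sets (level of at least 4 on 2 arrays), averaging a gene's probe sets, a 4-fold threshold, Diabetic alone as baseline, no day block, the grafts alone with fibroblasts as a block for later against earlier days, leaving out each array, and, chosen after seeing the data, leaving out the dim members Tyms and Ndc80. Promoters came from RefSeq (GRCm38.p6).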

Additional observations from a re-analysis of the deposited data

Results flagged for a closer look

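The direction of the difference between PSI-F and PSI was not the same on days 1 and 3. The median over the S phase genes was -0.54 on day 1 and 0.17 on day 3, and that over the mitosis genes -0.99 on day 1 and 0.12 on day 3. With 1 array per graft and day, this difference between days was not tested.

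Outside the genes described, 12 of the 24 poly-A spike-in control probe sets, which report RNA added before labelling, had a higher level on each day 7 and day 10 array than on all of the others, with a median difference of 1.45 (0.75 to 2.55). Days 7 and 10 differ from the other days and from the biopsies in this measure also. Its part in the comparisons of later grafts with earlier ones, or of day 7 and day 10 grafts with the biopsies, was not tested.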

How the results depend on the processing

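For Diabetic minus Control and for PSI-F minus PSI on each day, no difference that reached 2-fold changed sign under another normalization or averaging of probe sets. The other pairs of arrays were not checked in this way. With the Diabetic biopsy alone as baseline, the count of the 49 genes called by limma was 5 on day 1, 9 on day 3 and 2 on day 10, in place of 0. Leaving out each array in turn gave 0 to 5 calls on day 1, 0 to 9 on day 3, 0 to 1 on day 7 and 0 to 2 on day 10. The highest counts on days 1, 3 and 10 came without the Control array. That fit is the same as the one with Diabetic alone as baseline, so its counts are not a second result. Each fit by day without 1 array leaves 1 array in a day group, so no call in such a fit is read as a result about these genes. The day 7 difference of Ccne2 was -0.71 with or without a day 1 graft. For Cdca8 the day 1 difference was -0.84 with both grafts, and PSI-F of day 1 alone was -1.31 from Diabetic and -1.33 from Control. The baseline also moved the medians of the 49 genes, which without Diabetic were -0.72, -0.24, -0.65 and -0.27 on days 1, 3, 7 and 10, in place of -0.35, 0.20, -0.26 and 0.11, so that those of days 3 and 10 turned negative. At a 4-fold threshold 0 of the 49 genes were lower in Diabetic or in PSI-F of day 1, in place of 13 and 17 at 2-fold. The shares of all genes at 4-fold were 0.824% and 0.121%. Averaging a gene's probe sets gave a count of 7 in place of 17 for PSI-F of day 1, with no share of all genes on averaged values given here. Under cyclic loess, the trend, the dim filter, no day block and the grafts alone with fibroblasts as a block, the 49 genes still gave 0 calls. For PSI-F minus PSI, 34 genes had an unadjusted p under 0.05 without either day 3 array and 3 without either day 1 or day 7 array, in place of 9, with 0 calls each time. Of the 45037 probe sets, 3958 did so without a day 3 array, 1455 without a day 1 array and 1415 without a day 7 array, in place of 2749. Leaving out 1 array of a day takes that whole day out of this comparison, and day 3 was the day when most of the genes were higher in PSI-F. The call of E2f4 on day 1 was lost without the PSI-F graft of day 1 (limma adjusted p 0.101, against 0.0070 to 0.0351 in the other fits), and that of E2f4 in later against earlier grafts without any 1 graft but the PSI graft of day 3 (0.0766 to 0.124). Cdkn1a stayed called in every fit. Over all probe sets, calls on day 1 (1326 higher and 526 lower) became 3736 and 2871 with Diabetic alone, and later against earlier grafts (145 and 405) became 618 and 1449 over the 8 grafts with fibroblasts as a block. The labels give no replicate numbers, so PSI-F and PSI were paired by day alone. Without that day block 3 of the 49 genes had an unadjusted p under 0.05, in place of 9, beside 1262 of the 45037 probe sets, in place of 2749.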
